A study of Rattus norvegicus with 6 samples.

Results

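The genes of the cyclooxygenases and of the prostanoid synthases, together with the dehydrogenase that inactivates prostaglandins, were examined in the renal cortex of rats dosed with a cyclooxygenase inhibitor. The 10 genes were Ptgs1, Ptgs2, Ptges, Ptges2, Ptges3, Ptgds, Hpgds, Ptgis, Tbxas1 and Hpgd, taken by name and found on the array through the RefSeq accession of each probe. The array held 12 probes for them, and 9 of the 10 genes, among 29938 genes in all, were bright enough to be tested. Both groups were male Sprague-Dawley (Crl:CD(SD)) rats, 5 weeks old when purchased and kept on a basal diet with free access to tap water. The vehicle group, 3 animals, received corn oil for 4 weeks. The phenylbutazone group, also 3 animals, received phenylbutazone at 200 mg/kg/day for 4 weeks. Total RNA of the renal cortex of each animal went onto its own one-colour array, and the series design calls the 3 samples of a group biological replicates.

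Prostanoids are lipid signals made from arachidonic acid. Cyclooxygenase-1 and cyclooxygenase-2, the products of Ptgs1 and Ptgs2, convert arachidonate to prostaglandin H2, and separate terminal synthases turn that intermediate into prostaglandin E2, prostaglandin D2, prostacyclin or thromboxane A2. In the kidney, prostaglandins dilate the afferent arteriole and restrain salt and water reabsorption, and cyclooxygenase-2 of the cortex is known from the macula densa and the adjoining thick ascending limb. Phenylbutazone, a non-steroidal anti-inflammatory drug, inhibits both cyclooxygenase proteins. The arrays measure the transcripts, not enzyme activity or prostanoid levels.

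Levels are given as log2 of the processed spot intensity minus the 75th percentile of the same array, so that 0 is the brightness of the 75th percentile itself, and they are not compared between probes. Renal cortex markers were detected. All 7 proximal tubule markers (Lrp2, Cubn, Slc34a1, Slc22a6, Slc5a2, Slc22a8 and Aqp1) and all 4 podocyte markers (Nphs1, Podxl, Synpo and Wt1) were well above background on all 6 arrays, and so were Slc14a2 and the other markers of the medulla list. Vehicle 1 and vehicle 2 shared slide 1, while vehicle 3 and all phenylbutazone arrays shared slide 2 and its scan day. Vehicle 3 stood apart from the other vehicle arrays, at 52.3 on the first principal component of the 29938 genes against -41.2 and -36.3. The 6 erythrocyte markers tested, by the brightest probe of each, all had a log2 difference above 0. Their summed level, in units of the 75th percentile, was 494 to 677 in vehicle and 579 to 922 in phenylbutazone. A dimmer Slc4a1 probe differed by -0.38, whereas the further probes of Hba-a1, Hbb, Hbb-b1 and Ahsp were above 0. The part of erythrocytes in the differences below was not tested. In such bulk RNA, fewer cells of a type and less RNA per cell cannot be told apart.

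No prostanoid enzyme gene passed the test for a difference between phenylbutazone and vehicle. Among the 9 tested genes, 4 were higher and 5 lower on average in phenylbutazone, with a median log2 difference of -0.057 against 0.015 over all genes, of which 52.8% were higher. The limma adjusted p, taken over all 29938 genes, lay between 0.422 for Ptgs2 and 0.982 for Ptgds. Called genes at an adjusted p under 0.05 numbered 0 of 9, beside 0 of 29938 (0%) in all. At an unadjusted p under 0.05 the count was again 0 of 9, beside 12.2% of all genes (5.97% higher and 6.24% lower in phenylbutazone). In 1 of the 9, Ptgs2, every value of one group lay beyond every value of the other, which held for 21.5% of all genes in either direction and for 9.39% in the lower direction. Without vehicle 3 this count became 4 (Ptgs1, Ptgs2 and Ptges3 lower, Ptges higher), beside 43.7% of all genes. Within slide 2 it was 6, beside 72.6%, with vehicle 3 as the only vehicle array there.

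**Figure D1:**
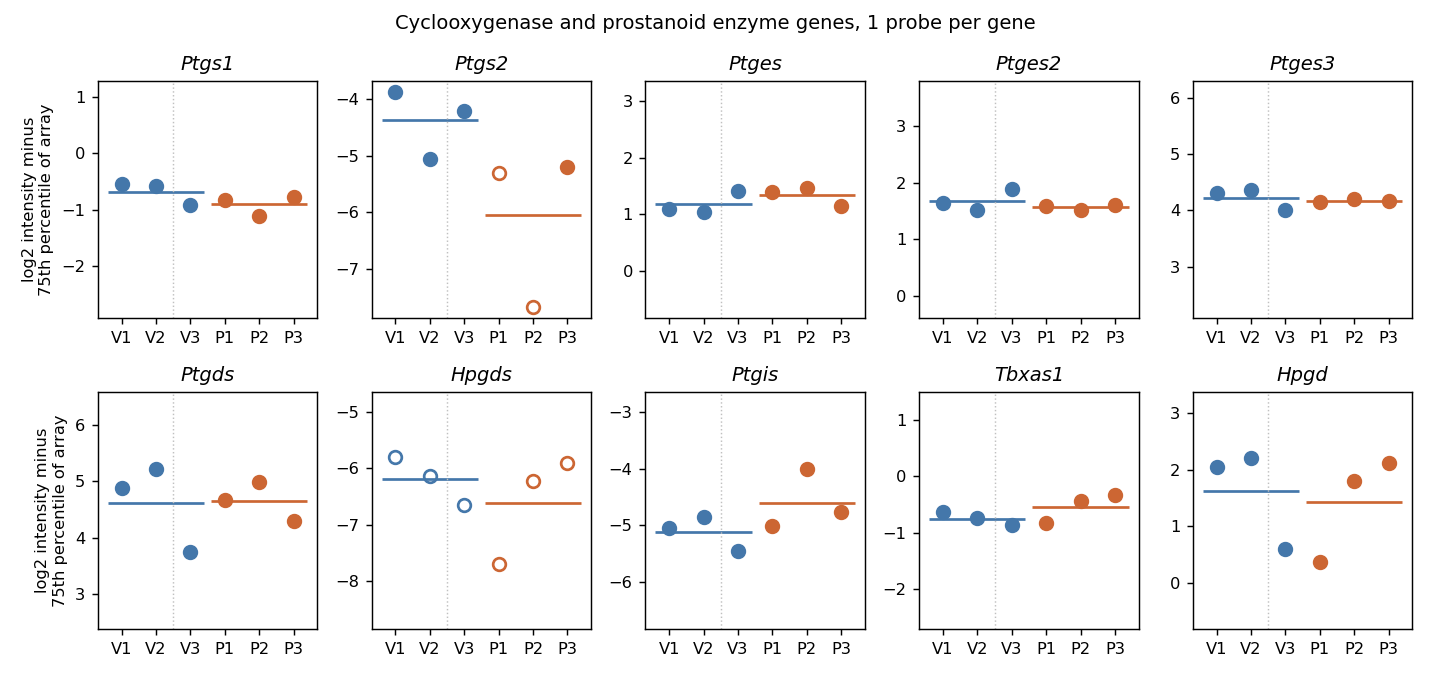
Log2 level of each gene on each array (V, vehicle; P, phenylbutazone), with 1 probe per gene and the same span of 4.2 log2 units on every axis. Horizontal lines are group means of 3 arrays, open circles mark spots not well above background, and the dotted line divides slide 1 (V1, V2) from slide 2. Only for Ptgs2 do the groups lie apart, and Hpgd varies within both groups by more than 1.6 log2 units.

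Ptgs2, which encodes the inducible cyclooxygenase-2, was dim in this tissue and lower on average in phenylbutazone. Its brighter probe had log2 levels of -3.88, -5.05 and -4.20 in vehicle 1, 2 and 3. On the phenylbutazone arrays 1, 2 and 3 it stood at -5.30, -7.67 and -5.19. Every treated animal thus read below every vehicle animal, by a narrow gap between phenylbutazone 3 and vehicle 2. The spots of phenylbutazone 1 and 2 were not well above background, so their exact places, that of phenylbutazone 2 above all, are not measured levels. The lowest level well above background was -5.58 on the array of phenylbutazone 2. As processed intensities these were 64.8, 30.3 and 50.2 against 22.7, 4.70 and 26.6, on arrays whose 75th percentile was 891 to 1003. The probe was well above background on 3 of 3 vehicle arrays and on 1 of 3 phenylbutazone arrays, phenylbutazone 3. Its 3 vehicle arrays alone met the rule of 3 arrays by which a probe was tested. A two-sided Fisher's exact test of this detection gave p = 0.4. It cannot decide the question, because 3 arrays per group cannot give a p below 0.1.

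The fitted log2 difference of Ptgs2 was -1.68 ± 0.71 (SE, 3 animals per group), which takes the undetected spots at their read values and is not a measured fold. Its 95% interval ran from -3.42 to 0.052, and the limma adjusted p was 0.422. The size varied with the processing. As an alternative, spots not well above background were raised to the lowest level well above background on their array (the bound), where they read below it. This gave -0.98 (limma adjusted p = 0.320) and moved phenylbutazone 2 only, since phenylbutazone 1 read above its bound of -5.45. Normexp background correction gave -0.28 (0.491), with an offset of 50 intensity units that by itself shrinks log2 differences of spots this dim. Without phenylbutazone replicate 2 the difference was -0.87 (0.650). Within slide 2 it was -1.86 (0.383). Over all alternatives the limma adjusted p of Ptgs2 lay between 0.309 and 0.650. A second Ptgs2 probe was not well above background on any array, at -8.06 to -7.55 in vehicle and -7.83 to -7.59 in phenylbutazone.

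The thick ascending limb and macula densa, where cortical Ptgs2 is known to be expressed, were represented by 5 marker genes. Of these Nos1, the neuronal nitric oxide synthase gene of the macula densa, was not bright enough to be tested. The 4 others (Umod, Slc12a1, Kcnj1 and Cldn16) were well above background on all arrays, with 3 higher and 1 lower on average in phenylbutazone. Their summed level, most of it from Umod, ran from 181 to 302 in vehicle and from 298 to 400 in phenylbutazone. The ranges overlapped, vehicle 3 was lowest, and the part of these cells in the Ptgs2 values was not tested. Umod, the uromodulin gene, had a log2 difference of 0.43 ± 0.23 and Kcnj1, the potassium channel gene of the thick limb, -0.35 ± 0.19 (limma adjusted p of 0.491 and 0.505).

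Ptgs1, which encodes the constitutive cyclooxygenase-1, was well above background on all 6 arrays with both of its probes. The brighter probe had log2 levels of -0.54, -0.58 and -0.92 in vehicle and -0.82, -1.10 and -0.78 in phenylbutazone. The groups overlapped, since vehicle 3 lay among the treated animals. The log2 difference was -0.22 ± 0.15 (SE, n = 3 per group), with a 95% interval of -0.59 to 0.15 and a limma adjusted p of 0.592. Against vehicle 3 alone, on slide 2, it was 0.025. The dimmer Ptgs1 probe had levels of -4.70, -3.96 and -3.98 in vehicle and -4.51, -4.79 and -4.51 in phenylbutazone, a difference of -0.39 with a 95% interval of -0.93 to 0.16. Over all 6 arrays both Ptgs1 probes therefore pointed the same way, and neither separated the groups. Against vehicle 3 alone the dimmer probe was lower on every phenylbutazone array, unlike the brighter probe. Whether the differences of Ptgs1 and Ptgs2 themselves differ was not tested.

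The regulatory sequence upstream of the pair is shown because Ptgs2 is the classical inducible and Ptgs1 the classical constitutive gene. RefSeq promoter windows of the build GRCr8 matched 7 of the 10 genes. The 250 bases before the annotated start were searched on both strands for TATAAA (the TATA box), TTTAAA (a variant of it), TTNNGNAA (the C/EBP form), CACGTG (an E-box), TGACGTCA (the full cAMP response element), TGACG (the short form, which the full element contains), GGGCGG (the GC box) and the NF-kB consensus, which is given by name only. Capitals mark every match. The windows, 5′ to 3′ on the strand of the gene, are Ptgs2 at chr13:64713813-64714062 (plus strand) and Ptgs1 at chr3:39981169-39981418 (plus strand).
Ptgs2: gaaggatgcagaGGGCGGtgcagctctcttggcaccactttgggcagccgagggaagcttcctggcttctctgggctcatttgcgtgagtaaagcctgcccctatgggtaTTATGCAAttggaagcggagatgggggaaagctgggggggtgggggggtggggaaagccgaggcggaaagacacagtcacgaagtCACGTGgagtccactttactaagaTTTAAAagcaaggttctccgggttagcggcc
Ptgs1: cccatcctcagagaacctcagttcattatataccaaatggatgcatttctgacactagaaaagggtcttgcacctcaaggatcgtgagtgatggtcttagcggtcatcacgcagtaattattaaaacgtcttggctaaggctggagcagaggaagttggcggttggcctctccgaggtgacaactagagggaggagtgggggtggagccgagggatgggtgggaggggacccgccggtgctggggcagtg
In the Ptgs2 window TTTAAA began 31 bases before the start, CACGTG 55 bases, TTATGCAA (a match to the C/EBP form) 140 bases and GGGCGG 238 bases before it. Of 33469 rat windows of this length, 12.3% held TTTAAA, 5.59% CACGTG, 37.2% the C/EBP form and 30.5% the GC box. The Ptgs1 window held none of the motifs searched, TATAAA (in 12.9% of windows) included. These are matches of letters only.

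Prostaglandin E2 is the main prostanoid of the nephron, and its 3 synthase genes were all bright and nearly level between the groups. Ptges encodes the inducible microsomal synthase that is often coupled to cyclooxygenase-2. It stood at 1.09, 1.04 and 1.41 in vehicle and at 1.38, 1.47 and 1.15 in phenylbutazone. Those ranges overlapped, with vehicle 3 near the top, and the log2 difference was 0.15 ± 0.15 (95% interval -0.20 to 0.51, limma adjusted p = 0.700). It was -0.074 within slide 2. Ptges2, which encodes a membrane-associated synthase, stood at 1.64, 1.52 and 1.89 in vehicle and at 1.59, 1.52 and 1.61 in phenylbutazone. The 3 treated animals fell within 0.094 log2 units of each other, and the difference was -0.11 ± 0.12 (95% interval -0.41 to 0.19, limma adjusted p = 0.738). Within slide 2 the Ptges2 difference was -0.32, and without vehicle replicate 3 it was -0.010. Ptges3, which encodes the cytosolic synthase also known as the HSP90 co-chaperone p23, stood at 4.30, 4.37 and 4.01 in vehicle and at 4.15, 4.20 and 4.16 in phenylbutazone. Its difference of -0.057 ± 0.12 had a 95% interval of -0.35 to 0.24 and a limma adjusted p of 0.875, and within slide 2 it was 0.16. For each of these 3 genes the interval excludes a 2-fold difference in either direction.

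The prostaglandin D2 synthases were measured very unequally. Ptgds, which encodes the lipocalin-type synthase and carrier, was bright at 4.87, 5.22 and 3.75 in vehicle and 4.67, 4.98 and 4.29 in phenylbutazone. Vehicle 3 was the lowest animal and vehicle 2 the highest, 1.47 log2 units apart, and all treated animals lay between them. The log2 difference was 0.032 ± 0.40 (95% interval -0.94 to 1.00, limma adjusted p = 0.982). Without vehicle replicate 3 it was -0.40 and within slide 2, against that array alone, 0.89. By a measure set after these values were seen, the largest gap between mean-centred log2 profiles over the 6 arrays, 425 of 12150 named genes followed Ptgds within 0.5 log2 units. The closest included Slco1a4, an organic anion transporter gene, within 0.19, and Rpl19, which encodes a ribosomal protein, within 0.22. Rpl19 levels were 7.29, 7.56 and 6.48 in vehicle and 7.34, 7.67 and 6.82 in phenylbutazone. That Rpl19 too was lowest in vehicle 3 follows from its choice by likeness to Ptgds.

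Hpgds, which encodes the hematopoietic synthase of mast cells and other leukocytes, was not well above background on any of the 6 arrays and was not tested. Its spot values of -6.65 to -5.80 in vehicle and -7.70 to -5.92 in phenylbutazone have no order below detection. Of the mast cell markers, Cpa3, Fcer1a and Ms4a2 were also not well above background on any array, while Kit, Tpsab1 and Tpsb2 were measured, with a summed level of 2.81 to 3.03 in vehicle and 2.75 to 2.84 in phenylbutazone.

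Ptgis and Tbxas1 encode the P450-type synthases of the opposed pair prostacyclin, a vasodilator that restrains platelets, and thromboxane A2, a vasoconstrictor that activates them. Ptgis was dim but well above background on all arrays, at -5.04, -4.85 and -5.47 in vehicle and -5.02, -4.01 and -4.77 in phenylbutazone. Phenylbutazone 1 lay within the vehicle range and phenylbutazone 2 was the highest. The log2 difference was 0.52 ± 0.30, or 1.43-fold, with a 95% interval of -0.20 to 1.24 (limma adjusted p = 0.520). It was 0.22 without phenylbutazone replicate 2, 0.13 with normexp and 0.86 within slide 2. The normexp offset of 50 intensity units by itself shrinks differences of spots as dim as these. Endothelial markers, from cells known to make prostacyclin, had a summed level of 24.1 to 35.3 in vehicle and 33.0 to 34.3 in phenylbutazone, and smooth muscle and mesangial markers 4.59 to 5.12 and 4.66 to 5.32.

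Tbxas1 stood at -0.63, -0.74 and -0.86 in vehicle and at -0.83, -0.44 and -0.33 in phenylbutazone. Treated animals 2 and 3 were above every vehicle animal, whereas phenylbutazone 1 was near the lowest vehicle value. The log2 difference was 0.21 ± 0.16 (95% interval -0.17 to 0.60, limma adjusted p = 0.614), and without phenylbutazone replicate 1 it was 0.36. Tbxas1 is known from platelets and macrophages. The 4 platelet markers tested did not move together. Pf4 had a log2 difference of 0.48 ± 0.13 with groups that did not overlap (limma adjusted p = 0.300), Treml1 of -0.52 ± 0.24 (0.445) and Gp9 of 0.048 ± 0.10 (0.875), and Itgb3 was well above background on only 3 arrays. They summed to 1.41 to 1.74 in vehicle and 1.54 to 1.82 in phenylbutazone, and Gp1ba was not well above background on any array. Macrophage markers summed to 75.7 to 101 and 73.8 to 98.5. The part of these cells in the Tbxas1 values was not tested.

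**Figure D2:**
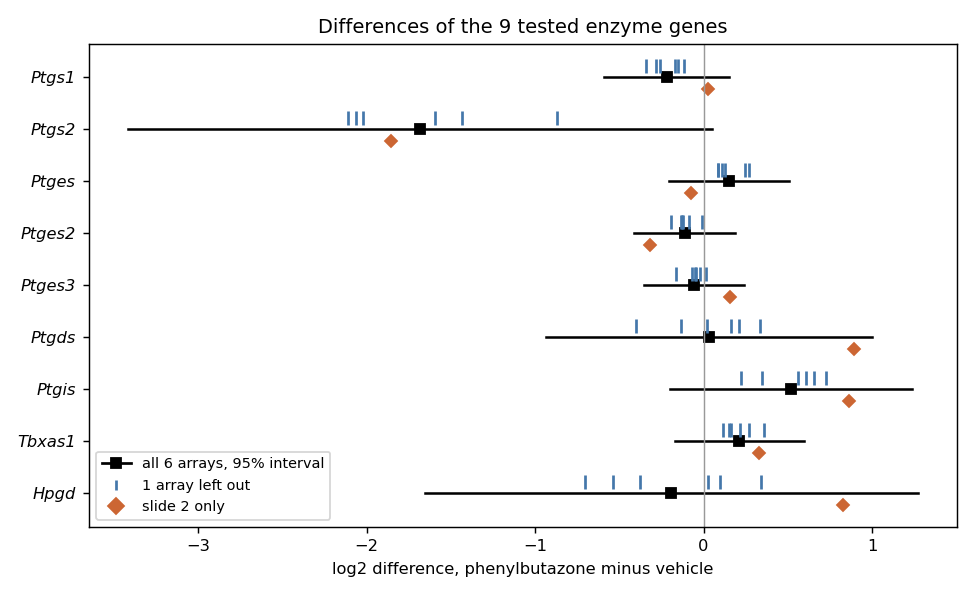
Log2 difference (phenylbutazone minus vehicle) of the 9 tested genes. Squares with bars are the estimate from all 6 arrays with its 95% interval, blue ticks are the values with each array left out in turn, and diamonds are the values within slide 2. Every interval includes 0, Ptgs2 has the lowest estimate at -1.68, and the slide 2 values of Ptgds (0.89) and Hpgd (0.83) lie far from their all-array values.

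Hpgd encodes 15-hydroxyprostaglandin dehydrogenase, the first enzyme of prostaglandin inactivation, which oxidises prostaglandin E2 after its uptake into cells. Its log2 levels were 2.05, 2.20 and 0.59 in vehicle and 0.36, 1.80 and 2.11 in phenylbutazone. Vehicle 3 and phenylbutazone 1 were low and the other 4 animals were high, with the same division inside each group. In processed intensity the low arrays read 1391 and 1143, and the others 3341 to 4600. The log2 difference between the groups was -0.19 ± 0.60 (95% interval -1.66 to 1.27, limma adjusted p = 0.919). It turned to 0.83 within slide 2, 0.34 without phenylbutazone replicate 1, 0.10 without vehicle replicate 2 and 0.026 without vehicle replicate 1. The spread between animals of one treatment, 1.60 log2 units in vehicle and 1.75 in phenylbutazone, was the widest of the 8 genes well above background on all arrays.

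By the same measure of likeness, 0 of 12150 named genes stayed within 0.5 log2 units of Ptgs2 on all 6 arrays, and 15 of Hpgd. The bound is absolute, so a gene of wide range tends to have few matches. The count therefore does not show how rare the Hpgd pattern is. The 6 closest were Apoh (apolipoprotein H), Sult4a1 and Sult1c2 (sulfotransferases), Mrap (a melanocortin receptor accessory protein), Oacyl (an acyltransferase-like protein) and Slc22a22, with largest gaps of 0.22 to 0.35 (Oacyl was well above background on 5 of the 6 arrays). Slc22a22 encodes OAT-PG, the prostaglandin transporter of the proximal tubule that is known to take up prostaglandin E2 for breakdown by the Hpgd product. It stood at 3.35, 2.97 and 1.84 in vehicle and at 1.16, 2.70 and 3.53 in phenylbutazone. Because it was picked by this likeness, its low values on the same pair of arrays as Hpgd are no separate evidence. Between the groups Slc22a22 differed by -0.26 ± 0.67 (limma adjusted p = 0.900). Sult1c2 stood at 7.10, 7.17 and 5.82 in vehicle and at 5.76, 6.72 and 7.05 in phenylbutazone, and its other probes were also lowest on vehicle 3 and phenylbutazone 1. The summed level of the proximal tubule markers was not low on this pair of arrays. It ran from 1196 to 1286 in vehicle and from 1246 to 1283 in phenylbutazone, highest in each group on vehicle 3 and phenylbutazone 1. Single markers differed in their order, and the part of these cells in the Hpgd values was not tested.

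**Figure D3:**
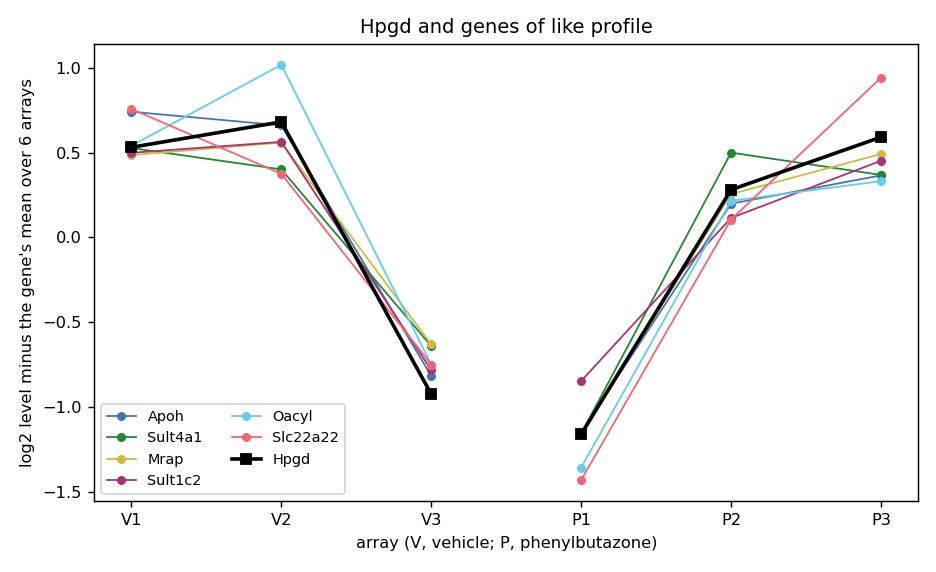
Log2 level of Hpgd (black squares) and of the 6 named genes closest to it, each minus its own mean over the 6 arrays (V, vehicle; P, phenylbutazone), with lines only joining the points of a gene within a group. The 6 were chosen for closeness to Hpgd on these same arrays. That they are lowest on V3 and P1, as Hpgd is, follows from the choice.

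The RefSeq window before Hpgd, at chr16:39034832-39035081 (minus strand), is given because this gene varied most between animals of one treatment among the 8 well above background on all arrays, with capitals as above.
Hpgd: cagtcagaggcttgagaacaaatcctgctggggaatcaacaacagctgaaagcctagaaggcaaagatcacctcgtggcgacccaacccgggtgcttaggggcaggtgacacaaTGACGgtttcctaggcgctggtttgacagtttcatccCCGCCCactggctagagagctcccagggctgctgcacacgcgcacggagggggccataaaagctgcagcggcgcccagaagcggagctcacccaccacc
It held the short cAMP response element TGACG, present in 18.2% of windows, 136 bases before the start, and 1 GC box, read on the opposite strand, and none of the other motifs searched.

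The other genes of the pathway were described in lists by role, and 0 of their members passed over all genes with limma. Of the genes that release arachidonate from membranes or return it to them, 15 of 18 were tested, 10 higher and 5 lower on average in phenylbutazone, with a median log2 difference of 0.065. Those at an unadjusted p under 0.05 numbered 3, all higher, beside 12.2% of all genes in either direction and 5.97% in the higher direction. Pla2g2a, which encodes a secreted phospholipase A2 of inflammation, stood at -4.39, -4.86 and -3.75 in vehicle and at -2.56, -3.54 and -2.49 in phenylbutazone. Its groups did not overlap, and the difference was 1.47 ± 0.38 (2.77-fold, limma adjusted p = 0.296). Acsl4, which encodes an arachidonate-preferring acyl-CoA synthetase, differed by 0.35 ± 0.10 and the calcium-independent phospholipase gene Pla2g6 by 0.41 ± 0.13 (limma adjusted p of 0.320 and 0.341), but a second Pla2g6 probe stood at -0.17. Pla2g4a, the cytosolic phospholipase A2 gene, named for its role in feeding the cyclooxygenases, differed by -0.10 ± 0.12.

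Of the 17 prostanoid receptor and transport genes 16 were tested, with a median of 0.079. Only 1 had an unadjusted p under 0.05, beside 12.2% of all genes. That was Abcc4, which encodes an efflux pump able to export prostaglandins, at 2.27, 2.19 and 1.84 in vehicle and 3.23, 2.97 and 3.02 in phenylbutazone. All treated animals were higher, by 0.97 ± 0.15 (1.96-fold, limma adjusted p = 0.179), and its other probes gave 0.70 to 0.88. The prostacyclin receptor gene Ptgir followed at -0.22 ± 0.13. Among 12 tested genes of prostaglandin reduction and later breakdown, with a median of 0.13, none had an unadjusted p under 0.05 (12.2% of all genes). The carbonyl reductase genes Cbr3 and Cbr1, whose products act on prostaglandin E2, differed by 0.33 ± 0.15 and 0.31 ± 0.17 (limma adjusted p of 0.431 and 0.507). A pair of aldo-keto reductase genes of this list, named after their values were seen, varied widely between animals of one treatment. Akr1c2 stood at -5.63, 0.56 and -0.55 in vehicle and at -6.20, -7.05 and -0.090 in phenylbutazone, and it was well above background only on vehicle 2, vehicle 3 and phenylbutazone 3. It was thus measured in some animals of both groups and below detection in others. Akr1b8 stood at 0.40, 0.50 and 0.94 in vehicle and at 4.20, 0.53 and 0.26 in phenylbutazone, with phenylbutazone 1 alone high. Their limma adjusted p was 0.684 and 0.709.

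Of the lipoxygenase and leukotriene genes, 11 of 12 were tested, with a median of 0.24. Alox15, which encodes an arachidonate lipoxygenase, stood at -3.90, -3.65 and -3.33 in vehicle and at -1.91, -3.25 and -1.46 in phenylbutazone. Phenylbutazone 2 was barely above vehicle 3, and the difference was 1.42 ± 0.46 (2.67-fold, limma adjusted p = 0.342). Dpep1, a dipeptidase gene of leukotriene breakdown, differed by 0.33 ± 0.15 (0.449). Among 15 tested regulators and stimuli of Ptgs2 transcription, with a median of 0.19, 0 had an unadjusted p under 0.05 (12.2% of all genes) and 0 had groups that lay apart (21.5% of all genes). The transcription factor genes Creb1 and Fos had the smallest p, at 0.19 ± 0.11 and 0.61 ± 0.39 (limma adjusted p of 0.537 and 0.565). A dimmer Fos probe differed by 0.88, and its groups did lie apart, at -5.77, -5.30 and -5.26 in vehicle and -4.62, -4.50 and -4.56 in phenylbutazone.

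**Figure D4:**
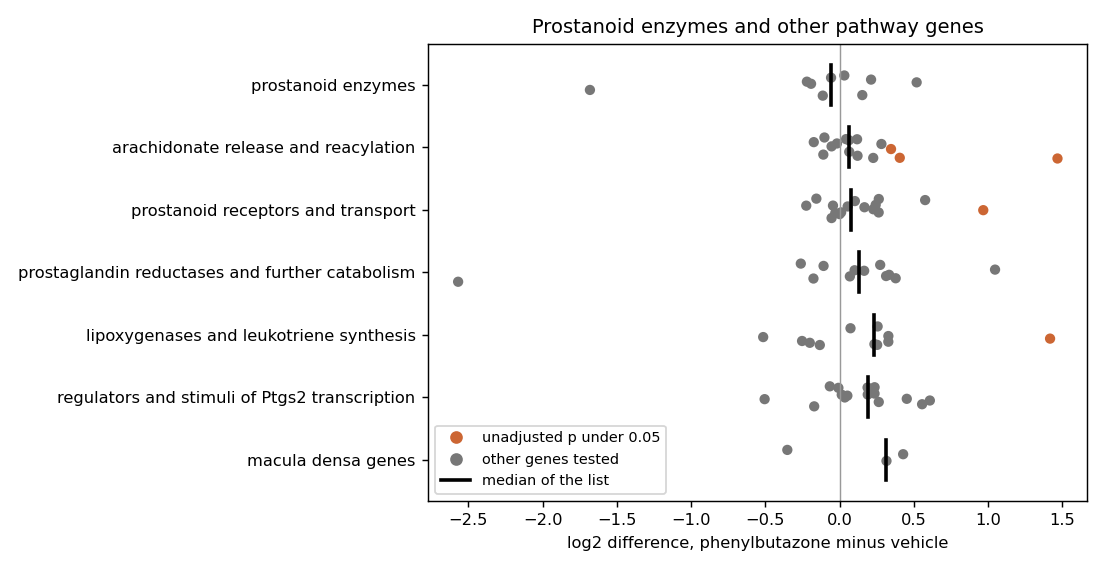
Log2 difference (phenylbutazone minus vehicle) of every tested gene, by list, with vertical placement within a row only to separate points. Orange points have an unadjusted p under 0.05, black bars are medians, and no point passed after adjustment. Of the prostanoid enzymes Ptgs2 lies lowest, at -1.68, the grey point at -2.57 is Akr1c2, which was below detection on 3 arrays, and Pla2g2a (1.47) and Alox15 (1.42) lie highest among the orange points.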

How the data were processed

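Renal cortex RNA of 6 rats was measured on one-colour Agilent arrays, 1 per animal. Per the submitters' processing notes, images were read with Agilent Feature Extraction 10.7. Per the file headers, the deposited processed intensity is background-subtracted and detrended, on a linear scale, not normalized between arrays, with a layout that names the build rn4. The authors' value table holds the ratio of each processed intensity to a constant within 0.3% of the array's 75th percentile. No normalization protocol was given in the sources used here.

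Control spots (1439 of 62976) and 40 probes with an outlier flag were left out. Intensities were taken to log2 minus the array's 75th percentile over 61537 non-control probes. Between 65.2% and 68.4% of these were well above background on an array. A probe was tested if 3 or more of the 6 arrays marked it well above background, and a gene was its brightest such probe, named through RefSeq transcript accessions (GRCr8, 28206 probes named). Differences were fitted with lmFit and eBayes (limma 3.58.1, R 4.3.3, two-sided, Benjamini-Hochberg over all genes, threshold 0.05), checked on simulated data. Only 3 arrays per group limit the precision.

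The members, the lists and the tests were chosen with earlier results of these data known. Genes named from a pathway list were those with an unadjusted p under 0.05, or, if fewer than 2, the 2 of smallest p, with Pla2g4a added for its role. Some items of the marker and pathway lists are not reported here. Samples with the same replicate number did not deviate together (correlations of -0.074 to 0.011, against -0.099 to 0.10 for other pairs). With 3 arrays per group this cannot exclude that the numbers pair animals. Alternatives were other scaling, normexp background correction (on the median signal), normalization, deposited ratios, filters, probe rules, an intensity trend, slide or replicate as a block, slide 2 alone and each array left out. Normexp used an offset of 50 intensity units. Added after seeing the data were dim spots raised to their bound and the measure of likeness between profiles. So were the counts of groups that do not overlap with arrays left out.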

Additional observations from a re-analysis of the deposited data

How the results depend on the processing

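No prostanoid enzyme gene passed under any of the 20 alternatives (19 for Ptgs2, which was not tested where all arrays had to be well above background). Ptgs2, Ptges2, Ptgis and Tbxas1 kept their direction in all of theirs. Slide as a fixed block and slide 2 alone gave the same turned values, 0.025 for Ptgs1, -0.074 for Ptges, 0.16 for Ptges3 and 0.83 for Hpgd. With slide as a random block Ptges3 turned to 0.080 and Hpgd to 0.46. Ptgds turned to -0.058 with normexp and -0.044 with quantile normalization. Leaving out 1 array gave ranges of -0.40 to 0.33 for Ptgds, -0.16 to 0.014 for Ptges3 and -0.70 to 0.34 for Hpgd. The replicate block left the Ptgs2 difference at -1.68 with a limma adjusted p of 0.478.

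Over all genes limma called 2 with normexp, 1 with quantile normalization, 8 with an intensity trend, 1 with slide as a random block and 0 to 814 with 1 array left out. The 814 came without vehicle replicate 3, where slide and treatment cannot be told apart, and they held 2 genes of the pathway lists, Abcc4 and Ptger3, against 0 with the other arrays left out. Medians moved for the lipoxygenase list (0.041 with normexp, 0.046 with slide as a fixed block or slide 2 alone, 0.093 with slide as a random block, 0.074 with dim spots at their bound, -0.012 to 0.36 with 1 array left out), the macula densa list (from 0.32 over 3 genes to -0.35 with no filter, 0.88 with slide as a fixed block or slide 2 alone, 0.72 with slide as a random block, -0.084 to 0.53 with 1 array left out, lowest without vehicle replicate 3) and the arachidonate release list (0.051 to 0.15 with 1 array left out). Further medians changed by over 1.5 times, though by less than the spread between replicates. With slide as a fixed block or slide 2 alone, arachidonate release went from 0.065 to 0.0032, receptors and transport from 0.079 to -0.010, reductases from 0.13 to 0.29 and regulators of Ptgs2 from 0.19 to 0.32. The regulators stood at 0.026 without phenylbutazone replicate 2, 0.073 without vehicle replicate 1 and 0.081 with normexp. The cause was not tested. Signals near background limit what Ptgs2 and Hpgds can show, and the division of the vehicle animals between slides limits Ptgds and Hpgd. Hpgd is also limited by the spread between the phenylbutazone animals, 1.75 log2 units with all of them on slide 2.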
